A study of Mus musculus with 6 samples.

Results

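Glycolysis and hypoxia response genes were described in healing bone of mice without Cyp24a1, an enzyme that inactivates the hormonal form of vitamin D. The set holds 38 genes chosen for their role in sugar breakdown and oxygen sensing: the hypoxia-inducible factors and their prolyl hydroxylases, sugar and lactate transporters, the enzymes of glycolysis, and other transcripts that these factors switch on. A gene was measured where the platform's annotation gives a probe set that symbol and no other, which held for 35 of the 38, and the brightest such probe set, by its mean on the 6 arrays, stood for it. Gpi1, Eno1 and Bnip3l were not measured in this way and are not analysed here. Ero1l was found under its current symbol Ero1a, and Gapdh only on control probe sets, which left 34 members tested of 18193 genes in all. Of these 34, 4 are the isoforms that skeletal muscle uses, Eno3, Pgam2, Pfkm and Aldoa, and 30 are others.

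Callus, the repair tissue at a break, came from 3 Cyp24a1 (-/-) samples, called null, and 3 Cyp24a1 (+/-) littermate samples, called heterozygous, so the controls carry 1 disrupted copy and no wild-type sample was included. All were mice of a C57BL6J x 129SV mixed background, aged 12 weeks at a tibial osteotomy held by a rod in the marrow cavity, and callus was taken 14 days later. Total RNA was labelled with biotin and hybridised to Affymetrix Mouse 430_2 arrays, 1 per sample, and all values below are log2 intensities as deposited. Whether each sample is 1 mouse is not said, and p-values therefore cover the spread among the 6 samples, which may be technical. Values are listed for replicates 1, 2 and 3 of each group in that order.

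As background, Hif1a and Epas1 encode the oxygen-regulated subunits HIF-1 alpha and HIF-2 alpha, which are destroyed while oxygen is plentiful because the prolyl hydroxylases Egln1 and Egln3 mark them, and which accumulate and switch on glycolytic genes when oxygen is scarce. A fracture interrupts blood vessels, and cartilage in the callus has no vessels of its own. Skeletal muscle next to the bone is rich in glycolytic enzymes and makes its own isoforms of several steps, so muscle attached to a callus sample adds to their level. In bulk tissue, fewer cells of a type and less RNA per cell cannot be told apart.

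The samples differed in tissue makeup in a way that genotype did not explain. The neutrophil marker list (11 of 12 genes measured) had a mean level of 6.69, 11.14 and 10.66 in null callus, against 10.77, 10.71 and 6.04 in heterozygous callus, and the erythroid list (8 of 12) one of 4.23, 8.94 and 8.11 against 8.69, 8.68 and 4.72. Null replicate 1 and heterozygous replicate 3 are therefore called marrow-poor here, 1 in each group, and the other 4 arrays marrow-rich. The skeletal muscle list (18 of 18) was high on all arrays but lowest on these: 12.79, 13.51 and 13.40 in null callus, against 13.53, 13.59 and 13.01 in heterozygous callus. The actin gene Acta1, which defines skeletal muscle, lay between 14.40 and 14.49 on all arrays. Its value on heterozygous replicate 1, 14.49, was the top of the range of all values. Its steady level therefore cannot show whether muscle content was equal. Cartilage markers were present, with the cartilage collagen gene Col2a1 at 8.16, 7.04 and 9.28 in null callus, against 9.76, 8.92 and 9.13 in heterozygous callus. Col10a1, the collagen of hypertrophic cartilage, was at 3.11, 4.44 and 7.71 in null callus, against 7.79, 6.74 and 7.35 in heterozygous callus, low on null replicates 1 and 2. The whole chondrocyte list (12 of 12) differed less, by -0.29, with 4 of its genes higher in null callus. Its mean level was 5.75, 5.38 and 6.18 in null callus, against 6.25, 5.88 and 6.06 in heterozygous callus, so the groups overlapped. The part of these tissues in the results below was not tested beyond the values given beside them.

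No member passed limma's test between genotypes, and most were somewhat higher in null callus. Of the 34 members, 25 were higher and 9 lower in null callus, against 49.7% higher over all genes. Their median difference, null minus heterozygous, was 0.22, against -0.0017 over all genes, and single members ran from -0.38 to 0.96. After Benjamini-Hochberg adjustment of limma's p-values across the 45037 probe sets tested, 0 members passed at 0.05 (lowest adjusted p = 0.999 among members), as did 0% of all probe sets. At an unadjusted p under 0.05 there were 0 members, against 4.49% of all genes. This unadjusted count depended on the model. It was 8 of 34 with the marrow score as a covariate (7 higher and 1, Pdk1, lower in null callus; 10.1% of all genes) and 9 of 34 with the muscle score (all 9 higher; 9.31% of all genes). Pfkp, Pgam1, Slc16a3, Slc2a3 and Pfkfb3 were among both. It was 8 with array weights (12.1% of all genes), 4 without both marrow-poor arrays (9.52%) and 0 to 4 with 1 array left out (2.81% to 7.77%), and no member passed after adjustment in any of these fits. The 3 null values lay above all 3 heterozygous values in 2 members, Ndrg1 and Ankrd37, against 4.14% of all genes, and below them in 0 members, against 5.99%. The mean over the members, relative to each gene's own mean, was -0.13, 0.18 and 0.24 in null callus, against -0.05, 0.10 and -0.34 in heterozygous callus, so the groups overlapped and each group's lowest value was on its marrow-poor array. The median was 0.12 without heterozygous replicate 3, 0.12 without null replicate 3 and 0.11 without both marrow-poor arrays, with 19, 22 and 24 members higher.

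**Figure D1:**
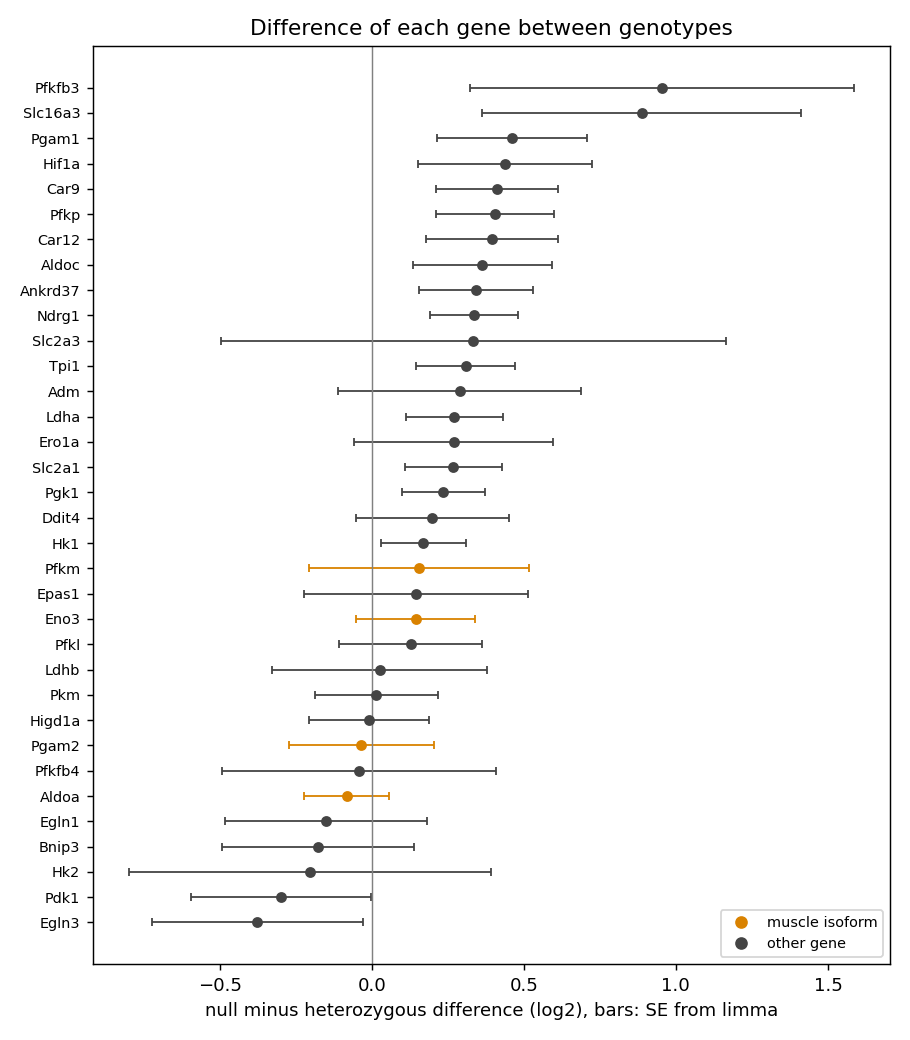
Null minus heterozygous difference of each of the 34 tested genes on the log2 scale, with the SE from limma as bars, muscle isoforms in orange and the others in dark grey. Of the 34 points, 25 lie to the right of 0, Pfkfb3 and Slc16a3 lie farthest right with wide bars, and the 4 muscle isoforms lie close to 0.

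Of the oxygen-sensing genes, 2 were higher and 2 lower in null callus (median -0.0022). Hif1a (probe set 1427418_a_at) was at 10.01, 9.10 and 9.59 in null callus, against 9.11, 8.74 and 9.53 in heterozygous callus. Its highest null and highest heterozygous value were on the marrow-poor arrays, and the groups overlapped. The difference was 0.44 (SE 0.29), and its 4 probe sets shared that direction. Of these, 1431981_at lay at 2.78 to 3.16, under the background guide of 3.52 given below, and differed by only 0.01. On 1448183_a_at the marrow-poor pair went the other way, by -0.57. Epas1 (1435436_at) was at 9.44, 10.74 and 10.47 in null callus, against 10.32, 10.27 and 9.62 in heterozygous callus. Here the lowest value of each group was on its marrow-poor array, so that the 2 factor genes ran opposite ways between marrow-poor and marrow-rich callus. Epas1 differed by 0.15 (SE 0.37), and its second probe set by -0.53. Egln1, the main oxygen sensor of the pathway, differed by -0.15 (SE 0.33), and Egln3, a hydroxylase that the factors themselves induce, by -0.38 (SE 0.35). For Egln3 the highest value of all, 9.05, was on heterozygous replicate 3, and both of its probe sets were lower in null callus.

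All 3 transporter genes were higher in null callus. Slc16a3 (1449005_at), which encodes the lactate exporter MCT4, was at 8.47, 9.30 and 9.84 in null callus, against 8.31, 9.22 and 7.41 in heterozygous callus. Heterozygous replicate 2 lay above null replicate 1, so the groups overlapped, although the null value was the higher one both on the marrow-rich arrays (difference of means 0.80) and on the marrow-poor pair (1.06). The difference over all arrays was 0.89 (SE 0.52), 1.85-fold higher in null callus, and 0.43 without heterozygous replicate 3. Slc2a1, the widespread glucose transporter GLUT1, differed by 0.27 (SE 0.16), with all 3 probe sets in that direction, and most of it came from the marrow-poor pair (0.65, against 0.08 on the marrow-rich arrays). Slc2a3, the glucose transporter GLUT3, was at 6.99, 9.48 and 8.92 in null callus, against 8.75, 8.97 and 6.67 in heterozygous callus. It was low on both marrow-poor arrays, whose mean minus that of the marrow-rich ones was -2.20, and its genotype difference of 0.33 (SE 0.83) was small beside that gap.

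Among the genes of the first steps of glycolysis, 7 of 10 tested genes were higher in null callus (median 0.16). The largest difference of any member belonged to Pfkfb3 (1416432_at), singled out after its values were seen, whose product makes the activator of phosphofructokinase. It was at 6.72, 8.95 and 9.04 in null callus, against 7.11, 7.75 and 6.98 in heterozygous callus. Null replicates 2 and 3 stood above every other array, while null replicate 1 was the lowest of all. The difference was 0.96 (SE 0.63), 1.94-fold, with 1.56 on the marrow-rich arrays and -0.26 on the marrow-poor pair, and its second probe set differed by 0.59. It was 1.71 without null replicate 1 and 0.55 without null replicate 3. Its relative Pfkfb4 differed by -0.04 (SE 0.45).

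Pfkp (1416069_at), the phosphofructokinase subunit named for platelets, was at 7.44, 6.94 and 6.95 in null callus, against 6.63, 6.51 and 6.98 in heterozygous callus. Only heterozygous replicate 3 lay within the null range, and the difference was 0.41 (SE 0.19), with 2 of its 3 probe sets in that direction. Tpi1 (1415918_a_at), triosephosphate isomerase, was at 12.68, 12.81 and 13.18 in null callus, against 12.42, 12.72 and 12.59 in heterozygous callus. Of the heterozygous arrays, replicate 2 alone lay above the lowest null value, and the difference was 0.31 (SE 0.16), in the same direction on all 3 probe sets. The hexokinases differed in direction, Hk1 by 0.17 (SE 0.14) and Hk2, the insulin-responsive form of muscle, by -0.20 (SE 0.59). For Hk2 the mean of the marrow-poor arrays minus that of the marrow-rich ones was -1.57.

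**Figure D2:**
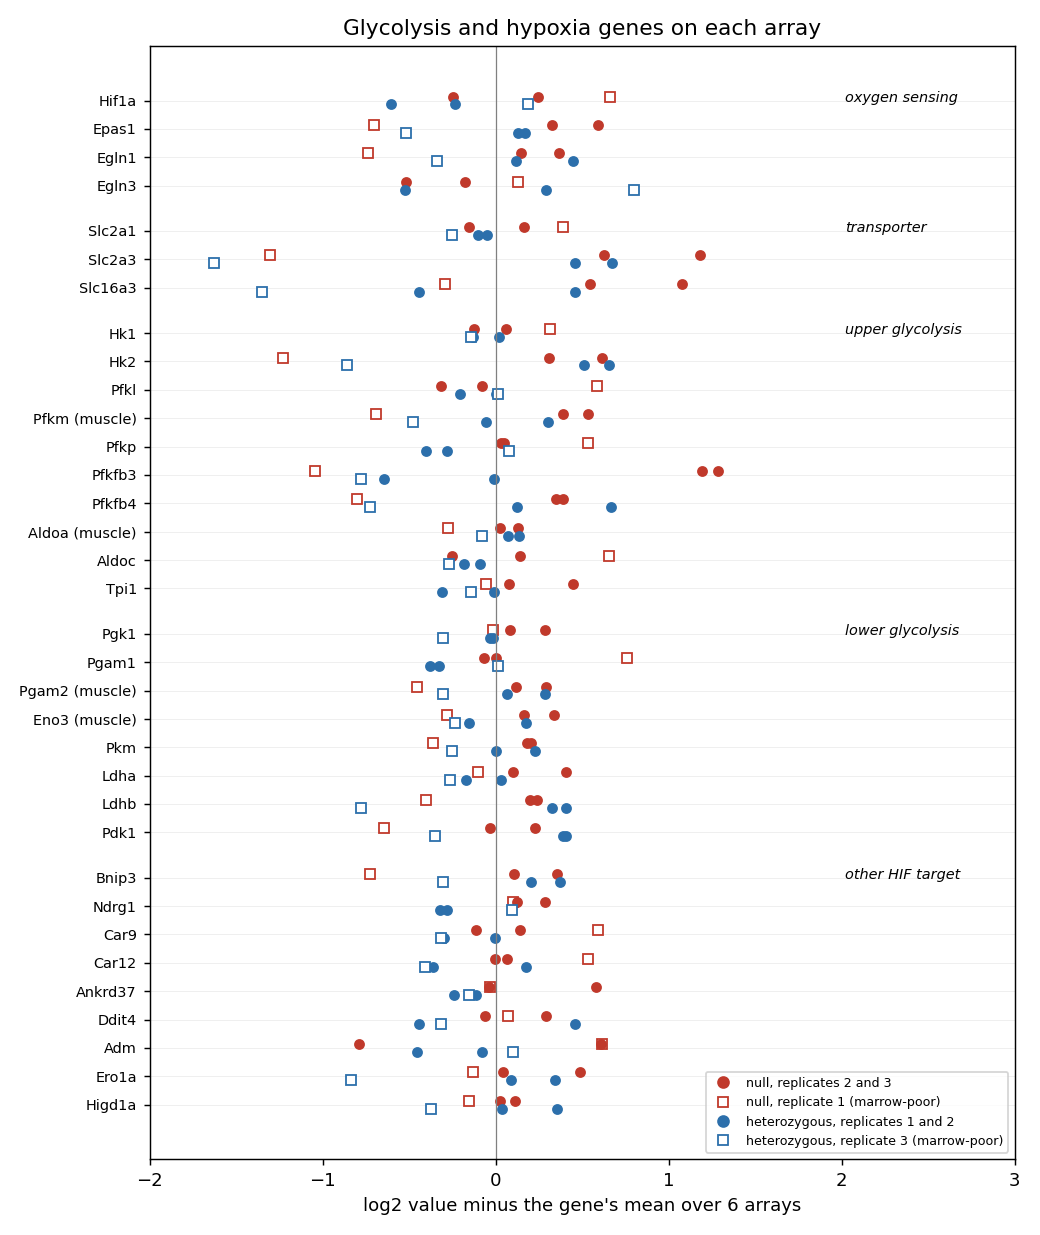
Level of each tested gene on each of the 6 arrays, as the log2 value minus that gene's mean over the arrays, grouped by role. Null arrays are red and drawn above heterozygous arrays, which are blue, and the marrow-poor array of each group is an open square. In 16 genes both open squares lie left of all filled circles, widest in Slc2a3 and Hk2, and in 3 genes, Pfkl, Pfkp and Pgam1, they lie right of them.

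Among the genes of the later steps, 6 of 8 tested genes were higher in null callus (median 0.09). Pgk1 (1417864_at), phosphoglycerate kinase, was at 11.54, 11.64 and 11.84 in null callus, against 11.52, 11.54 and 11.25 in heterozygous callus. The lowest null value minus the highest heterozygous value was -0.004, and the difference was 0.24 (SE 0.14), with all 3 probe sets in that direction. Ldha (1419737_a_at), the lactate dehydrogenase subunit that favours lactate formation, was at 12.59, 12.79 and 13.09 in null callus, against 12.52, 12.72 and 12.42 in heterozygous callus. Its null value was higher on the marrow-rich arrays (0.32) and on the marrow-poor pair (0.17), and the difference over all arrays was 0.27 (SE 0.16). Pgam1 (1426554_a_at), the phosphoglycerate mutase of most tissues, was at 8.72, 7.89 and 7.96 in null callus, against 7.63, 7.58 and 7.98 in heterozygous callus. Its level on null replicate 1 stood apart from the rest, and the difference of 0.46 (SE 0.25) was 0.20 without that array. Ldhb, the heart-type lactate dehydrogenase subunit, differed by 0.03 (SE 0.35), and the pyruvate kinase gene Pkm by 0.02 (SE 0.20). Pdk1, a kinase that keeps pyruvate out of mitochondria, differed by -0.30 (SE 0.30) on its brightest probe set but by 0.18 and 0.12 on 2 others, so its direction depended on the probe set.

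Gapdh was measured on 3 control probe sets, which were not tested. Its middle probe set was at 13.73, 13.91 and 13.97 in null callus, against 13.86, 13.90 and 13.81 in heterozygous callus. The 3 prime probe set exceeded the 5 prime one by 0.24, 0.02 and 0.06 in null callus, against 0.07, 0.17 and 0.05 in heterozygous callus, a measure of RNA integrity in which null replicate 1 stood highest.

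Among the other targets of the factors, 7 of 9 tested genes were higher in null callus (median 0.29). Ndrg1 (1420760_s_at), a stress-responsive gene that low oxygen induces in many cells, was at 8.84, 8.86 and 9.02 in null callus, against 8.46, 8.42 and 8.83 in heterozygous callus. The groups did not overlap, with a margin of only 0.0026 between null replicate 1 and heterozygous replicate 3, and the difference was 0.34 (SE 0.14) with all 5 probe sets in that direction (adjusted p = 0.999 by limma). On the other 4 probe sets the groups overlapped, and on the marrow-poor pair each of those 4 was lower in null callus, with differences of -0.05 to -0.38. Ankrd37 (1436538_at), an ankyrin-repeat gene, was at 4.41, 4.40 and 5.02 in null callus, against 4.32, 4.20 and 4.28 in heterozygous callus. Its groups did not overlap either, and its difference of 0.34 (SE 0.19) was 0.14 without null replicate 3, the 1 array that stood high.

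The carbonic anhydrases Car9 and Car12, which regulate pH at the cell surface, were both higher in null callus in the mean. Car9 (1427013_at) was at 5.05, 4.34 and 4.59 in null callus, against 4.15, 4.45 and 4.14 in heterozygous callus, and Car12 (1428485_at) at 5.19, 4.72 and 4.65 in null callus, against 4.30, 4.83 and 4.25 in heterozygous callus. Null replicate 1 was the highest array for each, and in each heterozygous replicate 2 lay within the null range. Car9 differed by 0.41 (SE 0.20), or 0.22 without null replicate 1, and Car12 by 0.40 (SE 0.22), or 0.23. For Car12 the 2 dimmer probe sets had the other direction, but at 2.53 to 3.23 they lay under the background guide given next. The vasodilator peptide gene Adm differed by 0.29 (SE 0.40), the mTOR inhibitor gene Ddit4 by 0.20 (SE 0.25) and the endoplasmic reticulum oxidase gene Ero1a by 0.27 (SE 0.33). Bnip3, which promotes removal of mitochondria, differed by -0.18 (SE 0.31), and the mitochondrial gene Higd1a by -0.01 (SE 0.20). No array of any tested member was at or under 3.52, the highest value of Xist and Y-linked transcripts on arrays without them, but Car9, Car12, Ankrd37 and Aldoc lay near the median of all probe sets, where summarised values compress differences. Xist was high on 1 null and 1 heterozygous array, so both groups mixed arrays with and without it. The part of sex in the spread was not tested.

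The muscle isoforms were set against the other members because muscle attached to the callus contributes to them. Aldoa (1416921_x_at), the aldolase of muscle, was at 13.60, 13.89 and 14.00 in null callus, against 13.94, 14.01 and 13.79 in heterozygous callus. Pfkm (1416780_at), the phosphofructokinase subunit of muscle, was at 12.12, 13.20 and 13.34 in null callus, against 12.75, 13.11 and 12.33 in heterozygous callus. Pgam2 (1418373_at), the muscle phosphoglycerate mutase, was at 12.26, 12.83 and 13.01 in null callus, against 12.78, 13.00 and 12.42 in heterozygous callus. In each of these genes both marrow-poor arrays lay below the other 4, and the groups overlapped. Eno3 (1417951_at), the muscle enolase, was at 12.98, 13.42 and 13.59 in null callus, against 13.10, 13.43 and 13.02 in heterozygous callus, with the same 2 arrays lowest.

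The differences were -0.08 (SE 0.14) for Aldoa, 0.16 (SE 0.36) for Pfkm, -0.03 (SE 0.24) for Pgam2 and 0.14 (SE 0.20) for Eno3. The median of the 4 muscle isoforms was 0.06, with 2 of 4 higher in null callus, and that of the 30 others was 0.27, with 23 of 30 higher. The muscle median turned to -0.05 without null replicate 2, -0.12 without null replicate 3 and -0.09 without heterozygous replicate 3. Without both marrow-poor arrays the medians were 0.13 for the muscle isoforms and 0.11 for the others, so they lay close together. Of the 18 skeletal muscle markers, 1 was higher in null callus, against 49.7% of all genes. The list's mean differed by -0.15, the groups overlapped, and null replicate 1 was lowest. With the mean of those markers per array as a covariate, 31 of 34 members were higher and the medians were 0.17 and 0.28. The share of all genes higher with that covariate is not given here, so the 31 cannot be read as particular to the members.

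**Figure D3:**
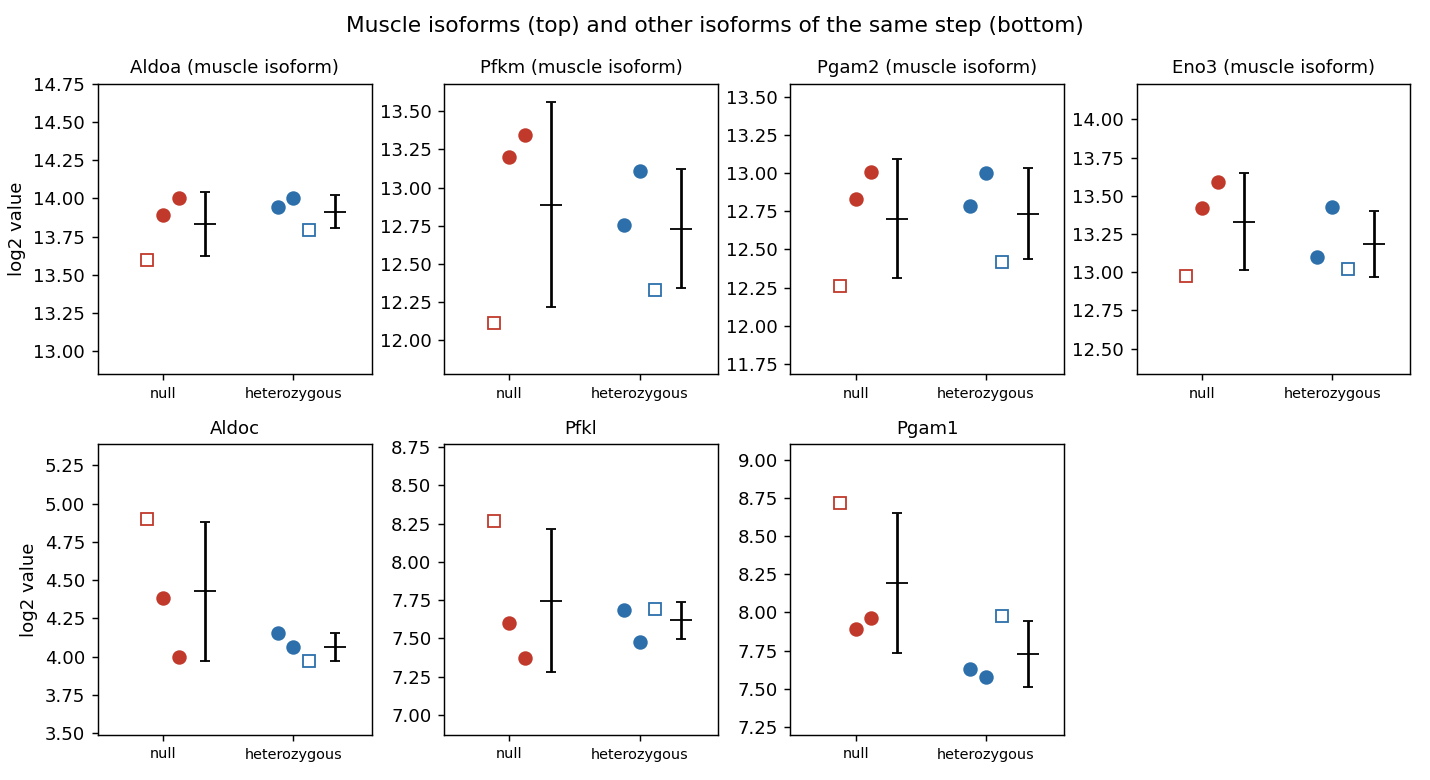
Log2 values of the muscle isoforms Aldoa, Pfkm, Pgam2 and Eno3 in the top row and of Aldoc, Pfkl and Pgam1, which act at the same steps as the first 3, below them. Null arrays are on the left in red, heterozygous arrays on the right in blue, open squares are the marrow-poor arrays, and the black mark with bars is the mean ± SD (n = 3), with all panels spanning the same range of log2 units. The open squares are lowest in each top panel, while for Pfkl and Pgam1 they are highest.

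The other isoforms of the same steps ran the other way between tissues or did not follow them. Pfkl (1439148_a_at), the liver-type phosphofructokinase subunit, was at 8.27, 7.60 and 7.37 in null callus, against 7.68, 7.48 and 7.69 in heterozygous callus. Aldoc (1451461_a_at), the brain-type aldolase, was at 4.90, 4.39 and 3.996 in null callus, against 4.15, 4.06 and 3.97 in heterozygous callus. For Pfkl both marrow-poor arrays were highest, and for Aldoc null replicate 1 was. Pfkl differed by 0.13 (SE 0.24) and Aldoc by 0.36 (SE 0.23). The change in isoform ratio was tested on the difference of the 2 log2 values within each array, for 3 pairs, since Eno1, the partner of Eno3, was not measured. Pgam2 minus Pgam1 was 3.54, 4.94 and 5.05 in null callus, against 5.15, 5.42 and 4.44 in heterozygous callus, a shift of -0.50 (two-sided exact permutation p = 0.5, adjusted 0.75 over 3 pairs). Aldoa minus Aldoc was 8.70, 9.51 and 10.01 in null callus, against 9.79, 9.94 and 9.82 in heterozygous callus, a shift of -0.45 (exact p = 0.4, adjusted 0.75). Pfkm minus Pfkl was 3.85, 5.60 and 5.98 in null callus, against 5.07, 5.63 and 4.64 in heterozygous callus, a shift of 0.03 (exact p = 1, adjusted 1). Each of the 3 shifts was smaller than the SD among the null arrays (0.66 to 1.14). The shift of Aldoa minus Aldoc was larger than the SD among the heterozygous arrays (0.08). The smallest p that 3 against 3 arrays allow is 0.1. In all 3 pairs null replicate 1 had the lowest ratio, and without it the shifts were -0.01, -0.09 and 0.67.

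More members separated by tissue makeup than by genotype, and the same held over all genes. By genotype, the null values lay all above in 4.14% of all genes and all below in 5.99%. Both marrow-poor arrays lay below the other 4 in 16 of 34 members, against 16.5% of all genes, and above them in 3, against 16.4%. The 16 hold all 4 muscle isoforms together with Hk2, Pfkfb3, Pfkfb4, Slc2a3, Epas1, Egln1, Ldhb, Pkm, Pdk1, Bnip3, Ero1a and Higd1a, and the 3 are Pfkl, Pfkp and Pgam1, in which heterozygous replicate 3 exceeded the highest marrow-rich array by 0.0098 to 0.031. Since muscle and marrow markers were low on the same 2 arrays, their parts in these levels cannot be told apart. Compared within tissue makeup, 24 of 34 members were higher in null callus on the marrow-rich arrays (median 0.11) and 21 of 34 on the marrow-poor pair (median 0.20), and 18 were higher in both. Of all 18193 genes, 8535 were higher in null callus on the marrow-rich arrays, 9981 on the marrow-poor pair and 4987 in both. Over all genes these medians were -0.02 and 0.03. None of the 4 muscle isoforms was among the 18, which include Hif1a, Slc16a3, Slc2a1, Slc2a3, Tpi1, Pgk1, Ldha, Pgam1, Pfkp, Car9 and Car12. Ndrg1 is counted among them for a difference of 0.0026 on the marrow-poor pair, which its other probe sets did not share. With 2 arrays against 2, and 1 against 1, these are values without a test. Of the marker lists of other cell types, the keratinocyte list (8 of 8 genes measured) differed most, by 1.40, with all 8 genes higher in null callus. Its mean level was 7.92, 7.13 and 6.33 in null callus, against 4.56, 7.01 and 5.61 in heterozygous callus, so the groups overlapped and heterozygous replicate 1 was lowest. The macrophage list (11 of 12 genes measured) also had a higher mean in null callus, with overlapping groups, at 10.17, 8.85 and 9.52, against 8.94, 8.44 and 9.37 in heterozygous callus, with null replicate 1 highest. The endothelial list (8 of 8) was at 7.67, 7.59 and 7.89 in null callus, against 7.31, 7.17 and 7.86 in heterozygous callus. Bone cell lists had a lower mean in null callus. The osteoblast list (7 of 10 genes measured) differed by -0.35, with 1 gene higher in null callus. Its mean level was 7.97, 8.61 and 8.24 in null callus, against 8.68, 8.54 and 8.64 in heterozygous callus, so the groups overlapped. The osteoclast list (8 of 8) differed by -0.14, with 3 genes higher in null callus. The part of these cell types in the members' differences was not tested.

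**Figure D4:**
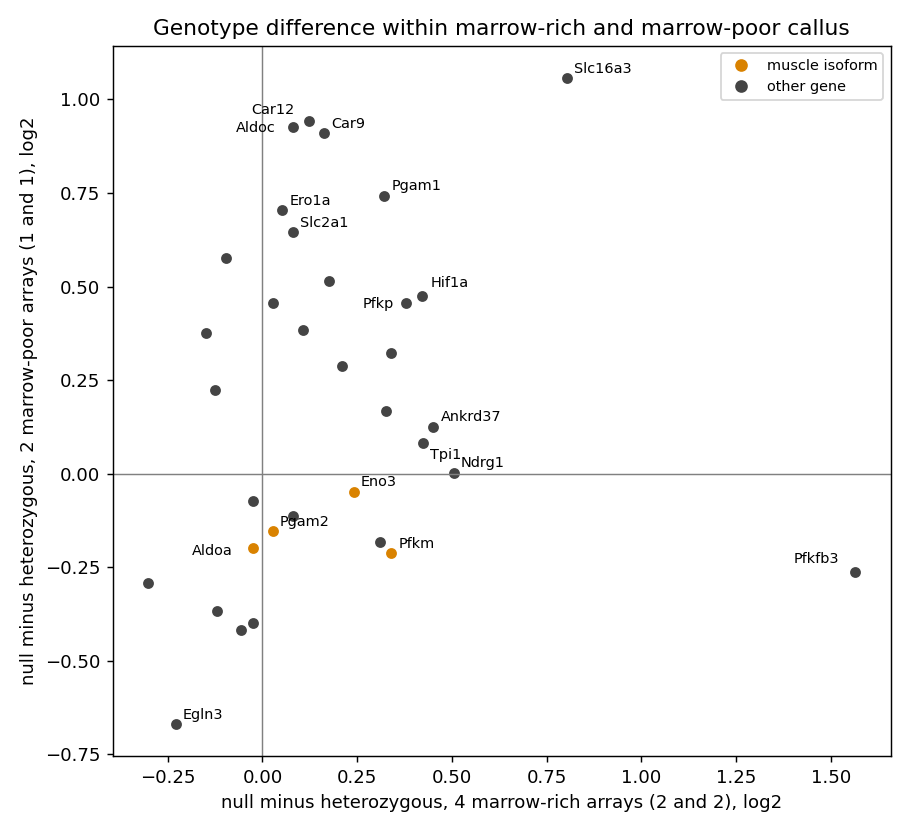
Null minus heterozygous difference of each tested gene on the 4 marrow-rich arrays (2 null, 2 heterozygous; horizontal axis) against that on the 2 marrow-poor arrays (1 null, 1 heterozygous; vertical axis), both log2, muscle isoforms in orange. The upper right field holds 18 of the 34 genes, the muscle isoforms all lie below 0 on the vertical axis, and Pfkfb3 lies far right but below 0.

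Promoter sequence is shown for Pfkfb3 and Slc16a3, the members with the largest differences, and for the pair Pgam1 and Pgam2, which lay opposite ways on the marrow-poor arrays. Sequences are RefSeq windows on GRCm38.p6 from 250 bases before to 50 after the start of the gene, 5′ to 3′ on the gene's strand. Capitals mark the core of the hypoxia response element, ACGTG or GCGTG, on either strand, and a palindromic CACGTG counts as 2 overlapping matches. Pfkfb3 has 2 windows, of which the one with more matches is printed. It holds 4 matches (chr2:11502041-11502340, minus strand), Slc16a3 2 (chr11:120948817-120949116, plus strand), Pgam1 3 (chr19:41911621-41911920, plus strand) and Pgam2 0 (chr11:5803747-5804046, minus strand).
Pfkfb3: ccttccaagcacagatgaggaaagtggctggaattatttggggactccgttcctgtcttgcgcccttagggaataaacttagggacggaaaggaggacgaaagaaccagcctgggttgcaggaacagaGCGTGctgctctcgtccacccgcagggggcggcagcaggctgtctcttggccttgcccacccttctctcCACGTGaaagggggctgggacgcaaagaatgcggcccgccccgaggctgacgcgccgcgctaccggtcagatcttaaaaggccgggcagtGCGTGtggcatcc
Slc16a3: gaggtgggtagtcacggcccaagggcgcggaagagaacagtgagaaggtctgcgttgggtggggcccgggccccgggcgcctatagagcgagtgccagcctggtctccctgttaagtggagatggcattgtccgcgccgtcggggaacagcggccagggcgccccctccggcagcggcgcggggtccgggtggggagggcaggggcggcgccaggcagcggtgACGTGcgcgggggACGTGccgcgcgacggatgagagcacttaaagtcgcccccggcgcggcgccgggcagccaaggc
Pgam1: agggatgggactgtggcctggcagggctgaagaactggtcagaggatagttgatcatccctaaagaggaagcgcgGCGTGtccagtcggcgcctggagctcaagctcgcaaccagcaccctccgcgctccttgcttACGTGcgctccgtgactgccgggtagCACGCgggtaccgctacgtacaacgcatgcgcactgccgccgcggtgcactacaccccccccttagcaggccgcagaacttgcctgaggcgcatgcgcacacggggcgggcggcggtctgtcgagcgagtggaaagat
Pgam2: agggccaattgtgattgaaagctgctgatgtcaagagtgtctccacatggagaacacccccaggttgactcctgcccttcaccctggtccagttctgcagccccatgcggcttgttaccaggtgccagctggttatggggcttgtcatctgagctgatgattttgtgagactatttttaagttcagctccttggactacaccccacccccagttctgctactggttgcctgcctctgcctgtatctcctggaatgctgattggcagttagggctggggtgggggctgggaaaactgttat

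At least 1 match was present in 34 of the 42 windows found for 31 of the tested members (81.0%), against 43.8% of all 32851 windows. The members' windows were also richer in G and C, with a median of 61.8% against 52.7% and a median of 20 against 7 CG dinucleotides, and both cores hold a CG, so the part of base composition in that share was not tested. A match is a stretch of letters and not a measured binding site. Hif1a itself has 3 matches in its window and Tpi1 has 0.

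Other genes of the pathway, taken from a fixed list of 40 of which 37 were measured, were divided about evenly. Of the 37, 19 were higher and 18 lower, with a median of 0.01, against 49.7% higher over all genes. Of these, 0 passed limma's test. At an unadjusted p under 0.05 there were 0, against 4.49% of all genes. The lowest p belonged to Pgm2, a phosphoglucomutase family gene, which was at 6.54, 6.26 and 6.37 in null callus, against 6.14, 5.48 and 6.16 in heterozygous callus, a difference of 0.46 (SE 0.21). Its null values all lay above the heterozygous values, as in 1 of the 37 genes, against 4.14% of all genes, and heterozygous replicate 2 stood lowest. They lay below in 0 of the 37, against 5.99%. Arnt2, a partner subunit of the factors, was at 3.47, 4.22 and 3.87 in null callus, against 3.37, 3.49 and 3.59 in heterozygous callus, a difference of 0.37 (SE 0.20). Null replicate 1 and heterozygous replicates 1 and 2 lay under 3.52, the highest value of the silent transcripts above, so this level is not above background on 3 of the 6 arrays. The more widespread partner Arnt differed by -0.25 (SE 0.17). The pyruvate dehydrogenase kinase gene Pdk3 differed by 0.37 (SE 0.22), the neuronal enolase gene Eno2 by 0.27 (SE 0.21) and the liver and red cell pyruvate kinase gene Pklr by -0.22 (SE 0.18). Both marrow-poor arrays were lowest in 20 of these 37 genes, against 16.5% of all genes, and highest in 2, against 16.4%.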

How the data were processed

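RNA of 6 callus samples was measured on 1-colour Affymetrix Mouse 430_2 arrays, per the labels' protocols. The authors deposited 1 log2 value per probe set and array (1.65 to 14.49 over all arrays); the log2 scale was read from the values, and the software, background correction and normalisation are not given in the sources used. The array medians lay between 4.55 and 4.59, and Pearson's r between arrays across probe sets was 0.970 to 0.991. The 64 control probe sets were left out, and 45037 were fitted in R 4.3.3 with lmFit and eBayes of limma 3.58.1 (two-sided, null minus heterozygous, no covariate), with Benjamini-Hochberg adjustment over all of them and a threshold of 0.05. Gene symbols came from the platform annotation, with RefSeq synonyms (GRCm38.p6) for 1 member. Gene-level counts used 1 probe set per gene, and the fit was tested on simulated data. Members, lists and tests were chosen with earlier results of these data known. The rule for naming gave every array's value for the muscle isoforms and their partners, Hif1a, Epas1, members without overlap of the groups and the 10 members of lowest p. For other genes of the pathway it named the 6 of lowest p. The Xist and Y-linked background guide was chosen after the values were seen. Precision is limited by the number of arrays. Alternatives were quantile normalisation, median centring, other choices of probe set, a level filter, a robust prior with an intensity trend, array weights, marrow and muscle scores as covariates, and leaving out arrays. Exact permutation tests used SciPy 1.17.1.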

Additional observations from a re-analysis of the deposited data

How the results depend on the processing

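With each of the 16 alternatives, 0 members passed limma's threshold wherever the test was run; over all probe sets 1 passed with the marrow score and 1 with the muscle score as a covariate, and 0 otherwise. The count of members higher in null callus ran from 19 to 31 of 34, and the members' median stayed above 0 throughout, lowest at 0.11 without both marrow-poor arrays. With genes above the median level kept, 22 of the 31 members left were higher. Of the 34 members, 19 had 1 direction under all 16 alternatives and 15 turned under at least 1. None of the 15 passed after adjustment wherever the test was run. At limma's unadjusted p under 0.05, Slc2a3, Epas1 and Pfkm were called with the muscle score. Slc2a3 was also called with the marrow score, and Car12 without heterozygous replicate 2. With array weights, the turned differences were Egln1 0.032, Pfkl -0.085, Pfkfb4 0.10, Pgam2 0.079 and Ldhb -0.061. With centring on medians, the turned difference was Pkm -0.0010. With the mean of all probe sets, the turned differences were Epas1 -0.19, Pfkl -0.027, Car12 -0.015 and Higd1a 0.015. With the muscle covariate, the turned differences were Egln1 0.044, Hk2 0.18, Pfkfb4 0.23, Pgam2 0.10, Bnip3 0.015 and Higd1a 0.084. With probe sets without a shared-sequence suffix, the turned difference was Pfkl -0.24, on a probe set at 2.87 to 3.29, under the background guide. With quantile normalisation, the turned difference was Higd1a 0.0051. With both marrow-poor arrays left out, the turned differences were Pfkl -0.096, Pgam2 0.027 and Ldhb -0.15. Leaving out 1 array at a time gave these ranges where a sign turned: Egln1 -0.37 to 0.18, Hk2 -0.68 to 0.36, Pfkl -0.13 to 0.32, Pfkfb4 -0.41 to 0.35, Aldoa -0.17 to 0.035, Pgam2 -0.19 to 0.19, Bnip3 -0.40 to 0.14, Higd1a -0.20 to 0.16, the muscle isoforms' median -0.12 to 0.25, Pfkm minus Pfkl -0.39 to 0.67, Epas1 -0.11 to 0.53, Slc2a3 -0.40 to 1.07, Pfkm -0.072 to 0.54, Pkm -0.11 to 0.20, Ldhb -0.36 to 0.24 and Ero1a -0.079 to 0.51. The cause was not tested. Aldoc lay below the level filter, so its pair has no value there. The controls are called littermates, but the litter of each array is not given. No paired analysis was possible, because the labels also give no shared replicate numbers or batches. Weak signal near the floor limits Car9, Car12, Ankrd37 and Aldoc, and 3 arrays per group limit all tests.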
